A study of Mus musculus with 21 samples.

Results

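The genes described here are 7 matrix metalloproteinases, Mmp2, Mmp3, Mmp9, Mmp11, Mmp13, Mmp14 and Mmp15, and 3 of their tissue inhibitors, Timp1, Timp2 and Timp3. They were taken by gene name from the deposited count table, and all 10 were among its 23713 genes. Their RNA was measured by bulk sequencing of polyA RNA in keratinocytes from mouse tail skin, in 3 models of basal cell carcinoma (BCC) that the labels call SmoM2, Gnas-eKO and PKI. Each model had 3 libraries from control mice whose epidermis bore no tumour (Con) and 4 libraries from mice with tumours (BCC), 21 libraries in all. The interval between tumour induction and cell isolation was 29 days for SmoM2, was 42 days for Gnas-eKO and was longest for PKI, at 57 days. The epidermis was freed from the dermis with trypsin and dispase, so the cells of every group went through digestion with proteases. SmoM2 is the usual name of an activated form of Smoothened, the signal transducer of the Hedgehog pathway. Gnas codes for the alpha subunit of the stimulatory G protein, and PKI is the usual name of a peptide inhibitor of protein kinase A. The labels give no promoter or Cre driver, strain, sex or age for any group, and do not say which alleles the Con mice carried. Batch A held all SmoM2 libraries, batch B all Gnas-eKO and batch C all PKI libraries, so model, batch and day cannot be told apart, and every BCC against Con comparison lies inside a single batch.

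Matrix metalloproteinases are zinc proteases that cut the proteins of the extracellular matrix and the basement membrane. They are made as inactive proenzymes, so an RNA level says how much message there was and not how much active enzyme. Most are secreted, while Mmp14 and Mmp15 stay anchored in the plasma membrane. The TIMP proteins bind the active site of these enzymes and block it, and Timp2 in addition takes part in the activation of the Mmp2 proenzyme by Mmp14 at the cell surface. In skin, matrix metalloproteinases are known from wound repair, hair follicle remodelling and the margins of tumours.

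Promoters are shown for Mmp3 and Mmp13, which lie close together on chromosome 9 and changed in different models, and for Timp1, Mmp14 and Timp3, which lack the letters that those promoters hold. RefSeq promoter sequences (mouse build GRCm38.p6, 250 bases before to 50 bases after the annotated start) were matched for 8 of the 10 genes. They were searched on both strands for TGANTCA, the letters of an AP-1 site, and for TATAAA, the letters of a TATA box. The 2 letter strings share no position in these windows, and capitals mark the matches. Mmp3 (chr9:7445572-7445871, plus strand) held TGAGTCA beginning 46 bases before the start and TATAAA beginning 7 bases before it. Mmp13 (chr9:7272264-7272563, plus strand) held TGACTCA beginning 35 bases before the start and TATAAA beginning 16 bases before it. The windows of Timp1 (chrX:20869916-20870215), Mmp14 (chr14:54431348-54431647) and Timp3 (chr10:86300162-86300461), all on the plus strand, held neither.
Mmp3: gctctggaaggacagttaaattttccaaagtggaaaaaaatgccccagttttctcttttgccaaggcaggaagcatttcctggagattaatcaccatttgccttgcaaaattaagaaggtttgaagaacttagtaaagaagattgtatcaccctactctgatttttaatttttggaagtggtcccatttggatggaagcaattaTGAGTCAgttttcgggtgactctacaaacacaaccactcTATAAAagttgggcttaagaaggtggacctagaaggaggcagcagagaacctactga
Mmp13: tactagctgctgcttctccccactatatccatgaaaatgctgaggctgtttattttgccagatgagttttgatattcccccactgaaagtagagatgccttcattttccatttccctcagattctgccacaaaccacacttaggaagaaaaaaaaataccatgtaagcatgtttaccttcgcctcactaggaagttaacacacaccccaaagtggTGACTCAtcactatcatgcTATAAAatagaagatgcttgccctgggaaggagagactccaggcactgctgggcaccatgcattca
Timp1: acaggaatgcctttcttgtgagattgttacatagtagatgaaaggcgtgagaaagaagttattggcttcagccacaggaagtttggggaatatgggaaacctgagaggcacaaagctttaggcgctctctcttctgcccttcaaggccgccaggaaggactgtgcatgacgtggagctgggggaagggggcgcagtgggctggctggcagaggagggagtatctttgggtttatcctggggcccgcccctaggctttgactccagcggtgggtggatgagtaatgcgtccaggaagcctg
Mmp14: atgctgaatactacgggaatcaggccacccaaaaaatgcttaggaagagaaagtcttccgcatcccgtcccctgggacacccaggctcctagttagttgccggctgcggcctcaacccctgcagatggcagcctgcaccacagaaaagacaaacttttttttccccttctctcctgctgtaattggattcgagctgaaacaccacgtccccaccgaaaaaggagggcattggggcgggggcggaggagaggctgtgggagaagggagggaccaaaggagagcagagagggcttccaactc
Timp3: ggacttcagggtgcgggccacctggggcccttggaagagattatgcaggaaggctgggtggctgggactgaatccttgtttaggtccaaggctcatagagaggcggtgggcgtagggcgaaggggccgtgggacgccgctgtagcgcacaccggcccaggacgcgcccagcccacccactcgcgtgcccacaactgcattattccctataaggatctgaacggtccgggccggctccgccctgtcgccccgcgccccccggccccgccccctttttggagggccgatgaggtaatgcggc
Neither string was found in the windows of Mmp11, Mmp15 and Timp2 either. Among 32851 promoters of the same length, 7.81% held TGANTCA and 13.6% held TATAAA. The GC content was 40.0% in Mmp3 and 43.67% in Mmp13, below the median of 52.67% over all promoters, and ran from 55.0% in Timp1 to 68.67% in Timp2 in the other 6. On chromosome 9, Mmp13 lies at 7272514 to 7283331 and Mmp3 at 7445822 to 7455975 (GRCm38). A match is a description of the letters in the window, and binding of a factor there was not measured.

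Library totals ranged from 16645858 to 22251132 estimated counts, so that 3 counts, the limit that a count of 0 allows, were at most 0.189 CPM, the standard scaling of counts to library size. Intervals and limits of this kind cover counting error only. The first principal component of 17695 genes carried 30.2% of the variance and placed the Con libraries from -57.2 to -40.4 and 11 BCC libraries from 32.4 to 59.4. Gnas-eKO BCC replicate 2 lay between them, at -20.4. The lowest correlation between libraries of a group was also in Gnas-eKO BCC (0.942 across genes, against at least 0.971 in the other groups). Gnas, the gene named in the Gnas-eKO label, was at 172 to 178 CPM in Gnas-eKO Con and at 51.1 to 115 CPM in Gnas-eKO BCC, with a log2 fold change of -1.11 (adjusted p = 0.0647, edgeR). Smo was at 93.6 to 110.4 CPM in SmoM2 Con and at 283 to 312 CPM in SmoM2 BCC, a log2 fold change of 1.55 (adjusted p = 1.13e-06). The rise of Smo was not particular to SmoM2. Its log2 fold change was 0.53 in PKI (adjusted p = 0.00187, edgeR) and 0.85 in Gnas-eKO (adjusted p = 0.0503, not called). In the column headers, the animal names of SmoM2 BCC begin with another prefix than those of SmoM2 Con, which share theirs with Gnas-eKO. The meaning of the prefix is not stated, so tumour and origin of the mice may not be separable in SmoM2. The headers give every library an animal name of its own, and p-values measure the spread between these libraries.

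In tail keratinocytes without tumours, levels per kilobase of exon were highest for Mmp2 and lowest for Timp1, with gaps below Mmp14, Mmp15 and Mmp3. CPM per kb is the CPM divided by the length of the gene's merged exons, the scale on which genes can be compared with each other. Over the 9 Con libraries Mmp2, a gelatinase, averaged 24.2 ± 6.71 CPM per kb (SD, n = 9), Timp3 averaged 22.4 ± 4.12 and Timp2 averaged 21.5 ± 2.58. These 3 neighbours did not differ beyond their spread, and the range of Mmp14 (14.7 to 21.2 CPM per kb) overlapped theirs. Mmp15, at 9.55 to 13.0 CPM per kb, lay below every Con value of Mmp14 and above every Con value of Mmp3, which ran from 2.42 to 7.53. Lowest were Mmp13 at 0.588 ± 0.495, Mmp11 at 0.342 ± 0.0906, Mmp9 at 0.257 ± 0.221 and Timp1 at 0.251 ± 0.168 CPM per kb (SD, n = 9). The ranges of these last 4 genes overlapped, and all lay below the lowest Con value of Mmp3. Con levels moved between models for some genes, and Mmp2 was higher in all 3 SmoM2 Con libraries than in any PKI Con library.

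**Figure D1:**
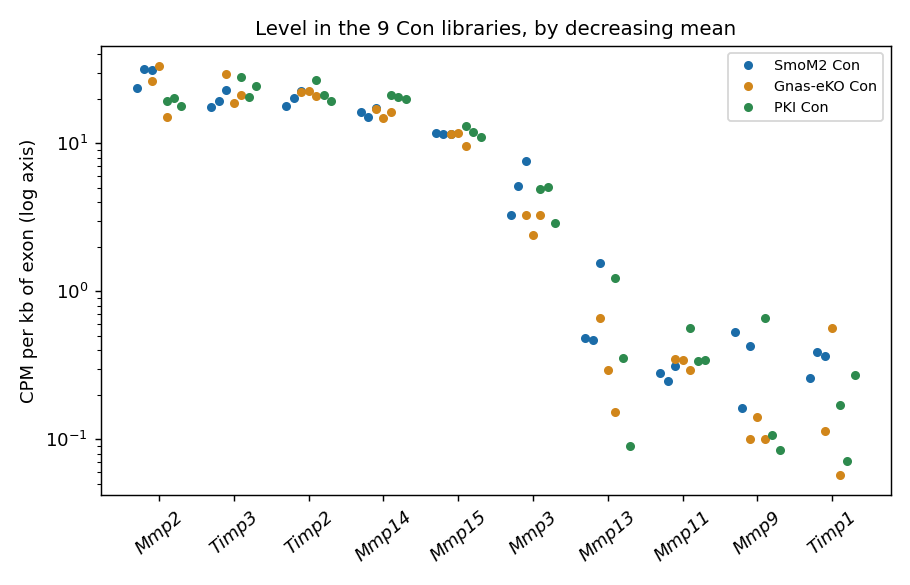
Level of each of the 10 genes in the 9 Con libraries, in CPM per kb of exon on a log axis, with points for libraries and genes by decreasing mean. Mmp2, Timp3, Timp2 and Mmp14 lie highest with overlapping ranges, Mmp15 and Mmp3 lie apart below them, and Mmp13, Mmp11, Mmp9 and Timp1 share the lowest range.

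BCC was compared with Con within each model by the quasi-likelihood test of edgeR, fitted over all genes that passed a filter on low counts, and a gene was called at a Benjamini-Hochberg adjusted p under 0.05. In SmoM2, 5 of the 9 genes tested rose (Mmp2, Mmp11, Mmp14, Timp2 and Timp3) and 1 fell (Mmp3). Of all 16370 genes tested there, 16.2% were called higher and 13.5% lower. In PKI, 3 of the 10 genes rose (Mmp9, Mmp13 and Timp1) and 2 fell (Mmp15 and Timp2), where 18.7% of all 16397 genes tested were called higher and 15.8% lower. In Gnas-eKO none of the 9 genes tested was called, where 1.46% of all 16409 genes were called higher and 0.165% lower. At an unadjusted p under 0.05 there were 5 in Gnas-eKO, as were 19.6% of all genes. DESeq2 called 3 there, Mmp9, Mmp11 and Mmp13, all higher, and 9.35% of all genes. Mmp9, Mmp13 and Timp1 passed the filter on low counts in PKI only through the BCC libraries, the group in which they were high, so the count of 3 supports nothing by itself. The same holds for Mmp9 and Mmp13 in Gnas-eKO. Without the filter all 3 were called in PKI as well. The median log2 fold change of the 7 proteases was 0.67 (SmoM2), 0.58 (Gnas-eKO) and 0.11 (PKI), beside 0.00, 0.02 and -0.00 over all genes tested. The medians in PKI and Gnas-eKO include Mmp9 and Mmp13, so they support no direction. In SmoM2, Mmp13 passed the filter only through Con. Timp2 was the only gene of the 10 called in 2 models, and it rose in SmoM2 and fell in PKI.

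Counted by library values alone, BCC and Con did not overlap for 6 genes in SmoM2 (5 above, 1 below), for 6 in PKI (3 above, 3 below) and for 3 in Gnas-eKO (all above). Of all genes tested, 19.6% lay wholly above and 19.2% wholly below Con in SmoM2, 22.4% and 20.8% in PKI, and 9.97% and 9.7% in Gnas-eKO. The shares called by the test in either direction were 29.7% in SmoM2, 34.5% in PKI and 1.63% in Gnas-eKO.

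**Figure D2:**
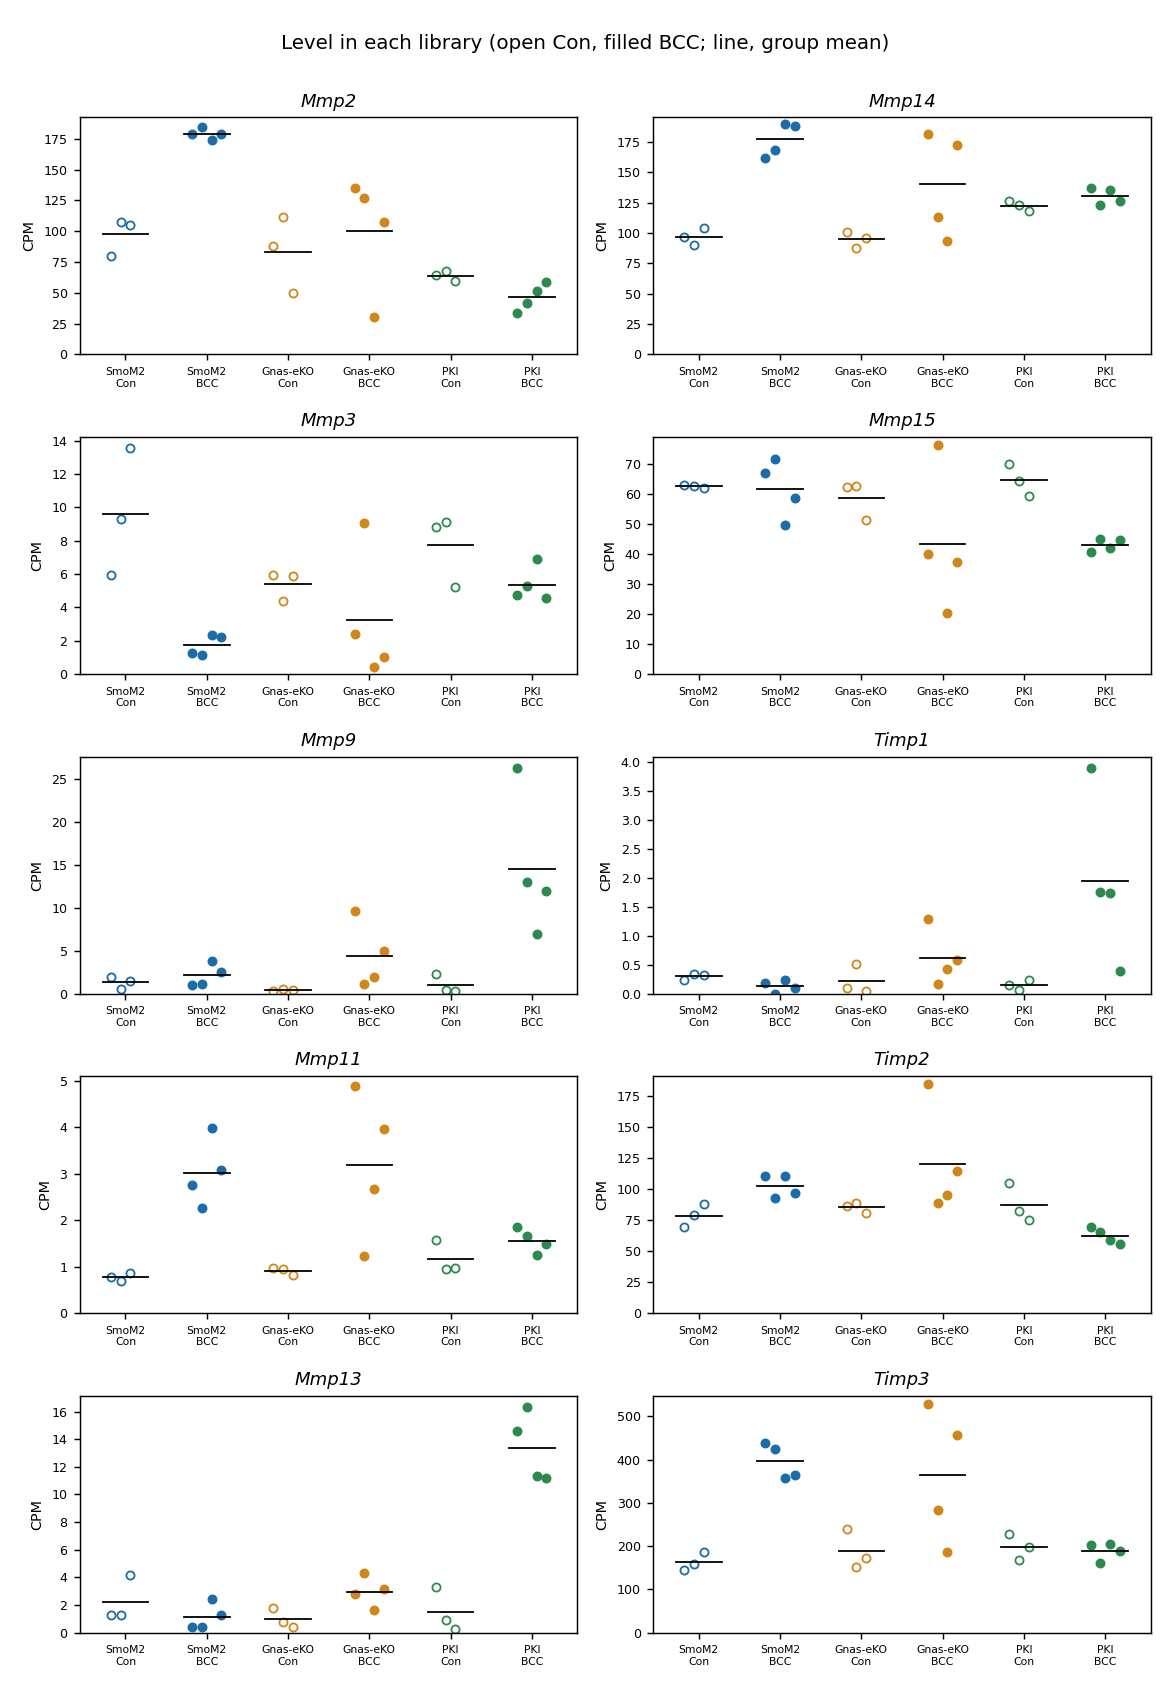
Level of each gene in every library, in CPM on a linear axis, with Con and BCC side by side within each model. The BCC libraries of SmoM2 lie above Con for Mmp2, Mmp11, Mmp14, Timp2 and Timp3, and those of PKI lie above Con for Mmp9, Mmp13 and Timp1.

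The gelatinases Mmp2 and Mmp9 cut denatured collagen and the type IV collagen of the basement membrane. Mmp2 (chromosome 8, 92827291 to 92853420, plus strand) was at 79.6, 108 and 105 CPM in SmoM2 Con and at 179, 185, 174 and 179 CPM in SmoM2 BCC. Every SmoM2 BCC library was higher than every Con library, and the log2 fold change was 0.90 (SE 0.10, adjusted p = 0.000166, edgeR). In a joint fit of all 21 libraries, which share 1 estimate of the spread, the SmoM2 change was 0.88 and was not called (adjusted p = 0.0825). In PKI the libraries read 64.8, 67.7 and 59.8 CPM in Con and 34.0, 41.6, 51.4 and 58.8 CPM in BCC. All 4 PKI BCC libraries lay below Con, replicate 4 by the narrowest margin, and the log2 fold change of -0.45 (SE 0.17, adjusted p = 0.0649) missed the threshold. Without PKI BCC replicate 4 it was -0.58 (adjusted p = 0.0147), and DESeq2 gave -0.46 (adjusted p = 0.0306). In Gnas-eKO, Mmp2 was at 88.3, 111 and 50.3 CPM in Con and at 135, 127, 30.4 and 107 CPM in BCC. These groups overlapped, with the lowest value in BCC replicate 3, which stood apart from the other 3 on the log2 scale, and the log2 fold change was 0.27 (SE 0.47, adjusted p = 0.799).

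Mmp9 (chromosome 2, 164940780 to 164955850, plus strand), which neutrophils and macrophages also make, was low in Con and highest in PKI BCC. PKI Con had 2.33, 0.379 and 0.300 CPM and PKI BCC had 26.3, 12.95, 6.98 and 11.95 CPM. The groups did not overlap, though Con replicate 1 stood above the other Con libraries, and Mmp9 rose with a log2 fold change of 3.80 (SE 0.78, adjusted p = 0.00998, edgeR). In Gnas-eKO the values were 0.355, 0.503 and 0.357 CPM in Con and 9.64, 1.07, 1.87 and 4.98 CPM in BCC. All 4 BCC libraries were above Con but spread widely, and the log2 fold change of 3.44 (SE 0.81, adjusted p = 0.073) was not called. Without Gnas-eKO BCC replicate 2 it was 3.77 (adjusted p = 0.0093), and DESeq2 gave 3.46 (adjusted p = 0.000165). In SmoM2 Mmp9 read 1.88, 0.573 and 1.51 CPM in Con and 1.04, 1.11, 3.79 and 2.52 CPM in BCC, overlapping groups with a log2 fold change of 0.67 (SE 0.55, adjusted p = 0.402).

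The stromelysins differ in their targets: Mmp3 cuts many matrix proteins and activates other proenzymes, while Mmp11 cuts few matrix proteins and is activated inside the cell by furin. Mmp3 was at 5.92, 9.29 and 13.6 CPM in SmoM2 Con and at 1.265, 1.16, 2.31 and 2.215 CPM in SmoM2 BCC. It fell in SmoM2, the only gene of the 10 to do so, with all BCC libraries below Con and a log2 fold change of -2.45 (SE 0.34, adjusted p = 0.000698, edgeR). PKI Con had 8.81, 9.15 and 5.22 CPM and PKI BCC had 4.72, 5.26, 6.89 and 4.55 CPM, overlapping groups with a log2 fold change of -0.51 (SE 0.23, adjusted p = 0.121). Con replicate 3 was the low PKI control, and without it the change was -0.73 (adjusted p = 0.0378). In Gnas-eKO, Mmp3 read 5.93, 4.36 and 5.87 CPM in Con and 2.40, 9.06, 0.428 and 1.01 CPM in BCC. BCC replicate 2 was above every Con library and the other 3 BCC libraries were below, giving -0.74 (SE 0.82, adjusted p = 0.675). Without that replicate Mmp3 was called lower in Gnas-eKO, at -2.04 (adjusted p = 0.0485).

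Mmp11 (chromosome 10, 75923222 to 75936496, minus strand) rose in SmoM2 from 0.781, 0.688 and 0.865 CPM in Con to 2.76, 2.27, 3.98 and 3.07 CPM in BCC. The log2 fold change was 1.96 (SE 0.29, adjusted p = 0.00077, edgeR). In Gnas-eKO the Con libraries had 0.962, 0.949 and 0.817 CPM and the BCC libraries 4.89, 1.23, 2.67 and 3.96 CPM. All 4 were above Con, replicate 2 the nearest to it, and the log2 fold change of 1.82 (SE 0.48, adjusted p = 0.0937) was not called. It was 2.09 (adjusted p = 0.00787) without replicate 2 and 1.82 (adjusted p = 0.0085) with DESeq2. In PKI, Mmp11 had 1.57, 0.947 and 0.960 CPM in Con and 1.85, 1.65, 1.245 and 1.48 CPM in BCC, overlapping groups with a log2 fold change of 0.42 (SE 0.31, adjusted p = 0.323). Mmp11 overlaps Chchd10 on the opposite strand, and whether counting used the strand is not given in the sources used here. Chchd10 was at 10.0 to 29.9 CPM over all groups and was not called in any model.

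Mmp13 is collagenase-3, which cuts fibrillar collagen. In PKI it rose from 3.29, 0.947 and 0.240 CPM in Con to 14.6, 16.35, 11.3 and 11.2 CPM in BCC. The 4 BCC libraries were close together and all above Con, whose replicate 1 was the highest, and the log2 fold change was 3.13 (SE 0.62, adjusted p = 0.00791, edgeR). In Gnas-eKO, Mmp13 read 1.77, 0.782 and 0.409 CPM in Con and 2.77, 4.29, 1.60 and 3.19 CPM in BCC, with a log2 fold change of 1.58 (SE 0.54, adjusted p = 0.158). Only BCC replicate 3 lay within the Con range there, and DESeq2 called the change (1.59, adjusted p = 0.0471). In SmoM2 the values were 1.29, 1.26 and 4.16 CPM in Con and 0.407, 0.434, 2.41 and 1.26 CPM in BCC. Those groups overlapped, and the log2 fold change was -0.97 (SE 0.70, adjusted p = 0.348).

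Of the membrane-type enzymes, Mmp14 is the chief activator of the Mmp2 proenzyme and cuts fibrillar collagen at the cell surface. Mmp14 rose in SmoM2 from 96.6, 89.9 and 104 CPM in Con to 162, 169, 190.2 and 188 CPM in BCC. The log2 fold change was 0.89 with an SE of 0.08 (adjusted p = 4.47e-05, edgeR), close to that of Mmp2 in the same libraries. In PKI, Mmp14 read 126, 123 and 118 CPM in Con and 137, 123, 136 and 127 CPM in BCC. Those groups overlapped, with a log2 fold change of 0.11 (SE 0.07, adjusted p = 0.253). In Gnas-eKO it had 101, 87.8 and 96.2 CPM in Con and 182, 114, 93.7 and 172 CPM in BCC. BCC replicate 3 lay within the Con range and the other 3 above it, and the log2 fold change was 0.58 (SE 0.24, adjusted p = 0.226).

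Mmp15, the second membrane-type enzyme here, fell in PKI from 70.3, 64.3 and 59.5 CPM in Con to 40.8, 45.0, 42.1 and 44.9 CPM in BCC. No BCC library reached Con, and the log2 fold change was -0.57 (SE 0.08, adjusted p = 0.00111, edgeR). In the joint fit it was -0.58 and was not called (adjusted p = 0.099). In SmoM2, Mmp15 had 63.2, 62.7 and 62.2 CPM in Con and 67.2, 71.7, 49.7 and 58.7 CPM in BCC. The BCC libraries lay on both sides of Con, with a log2 fold change of -0.01 (SE 0.11, adjusted p = 0.98). In Gnas-eKO the values were 62.45, 62.8 and 51.5 CPM in Con and 40.2, 76.35, 20.3 and 37.5 CPM in BCC. There replicate 2 was above Con and the other 3 BCC libraries below, and the log2 fold change was -0.43 (SE 0.36, adjusted p = 0.57).

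Among the inhibitors, Timp3 binds to the matrix and blocks ADAM17 as well as the matrix metalloproteinases. Timp3 (chromosome 10, 86300372 to 86349506, plus strand) rose in SmoM2 from 144, 158 and 187 CPM in Con to 438, 424, 356 and 364 CPM in BCC. All 4 were above Con, and the log2 fold change was 1.30 (SE 0.11, adjusted p = 3.12e-05, edgeR). In Gnas-eKO, Timp3 had 239.7, 152 and 172 CPM in Con and 528.5, 283, 186 and 457 CPM in BCC. Only BCC replicate 3 lay within the Con range, and the log2 fold change of 0.96 (SE 0.35, adjusted p = 0.187) was not called. In PKI the libraries read 229, 167 and 197 CPM in Con and 202.5, 161, 205 and 188 CPM in BCC, a log2 fold change of -0.05 (SE 0.12, adjusted p = 0.767). Syn3, which overlaps Timp3 on the opposite strand, was at most at 0.858 CPM.

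Timp2, the inhibitor that also helps Mmp14 to activate the Mmp2 proenzyme, moved in opposite directions in SmoM2 and PKI. In SmoM2 it rose from 69.3, 78.9 and 87.4 CPM in Con to 111, 92.4, 110.5 and 96.9 CPM in BCC, with a log2 fold change of 0.40 (SE 0.10, adjusted p = 0.0129, edgeR). In PKI it fell from 105, 82.55 and 74.6 CPM to 69.6, 65.4, 58.75 and 55.3 CPM, with a log2 fold change of -0.48 (SE 0.12, adjusted p = 0.0162). The groups did not overlap in either model. PKI Con replicate 1 was the highest PKI control, and without it the change was -0.33 and was no longer called (adjusted p = 0.058). The joint fit called neither change, with an adjusted p of 0.154 in SmoM2 and 0.0536 in PKI (edgeR). Cep295nl, which overlaps Timp2 on the same strand, was at 0.219 to 1.24 CPM. In Gnas-eKO, Timp2 had 85.9, 88.34 and 80.9 CPM in Con and 184, 88.35, 94.7 and 114 CPM in BCC, with a log2 fold change of 0.51 (SE 0.25, adjusted p = 0.299). There BCC replicate 1 was the highest library, and replicate 2 was level with the highest Con library.

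Timp1 (chromosome X, 20870166 to 20874735, plus strand), a secreted inhibitor induced in inflamed and healing tissue, had at most 28 counts in any library outside PKI BCC. PKI Con had 3, 1 and 4 counts (0.152, 0.0631 and 0.240 CPM) and PKI BCC had 76, 34, 39 and 7 counts (3.90, 1.75, 1.73 and 0.384 CPM). All 4 BCC libraries were higher, replicate 4 by only 3 counts over the highest Con library. Timp1 rose with a fitted log2 fold change of 3.63 (SE 0.83, adjusted p = 0.01, edgeR). The summed CPM ratio was 12.8 (exact 95% interval 6.34 to 30.2, from 156 against 8 counts, counting error only). Timp1 passed the filter on low counts only through the PKI BCC libraries, so its call there is of a gene that had to be high in that group to be tested. It passed with PKI BCC replicate 4 left out, at 3.96 (adjusted p = 0.00167), but not with any other PKI BCC library left out. In SmoM2 it had 5, 6 and 6 counts in Con and 4, 0, 5 and 2 counts in BCC. In Gnas-eKO it had 2, 9 and 1 counts in Con and 28, 3, 8 and 12 counts in BCC. Syn1, which overlaps Timp1 on the opposite strand, was at most at 0.257 CPM. Timp1 was not tested in SmoM2 or Gnas-eKO, and without the filter the log2 fold changes were -1.15 (adjusted p = 0.382) and 1.51 (adjusted p = 0.430).

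**Figure D3:**
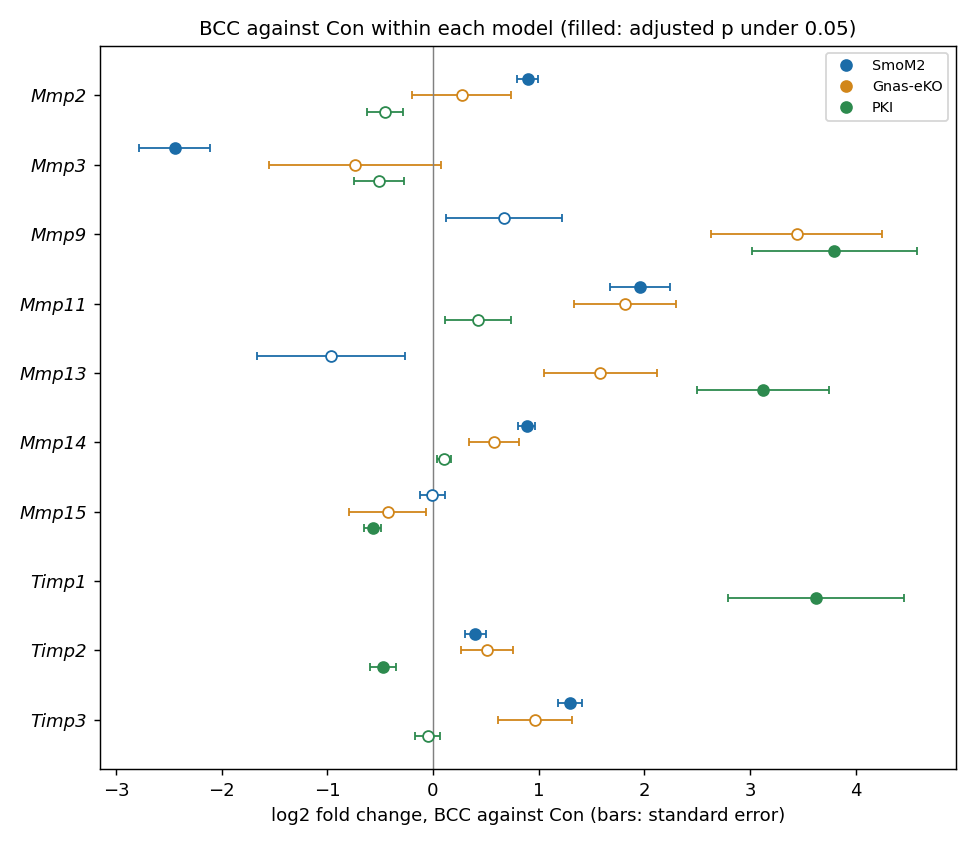
Log2 fold change of BCC against Con for each gene, by model, with bars of 1 standard error and filled points where the adjusted p was under 0.05. The SmoM2 calls are Mmp2, Mmp11, Mmp14, Timp2, Timp3 (higher) and Mmp3 (lower), the PKI calls are Mmp9, Mmp13, Timp1 (higher) and Mmp15, Timp2 (lower), and Gnas-eKO has none.

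Whether the BCC effect itself differed between models was tested as an interaction over the 14 libraries of each pair of models. Since each model was its own batch and day, such a difference cannot be told apart from a difference between batches or days in how BCC and Con diverged. Between PKI and SmoM2 all 10 genes were called: the PKI effect was the higher in 4 and the lower in 6. Of all 17261 genes tested in that comparison, 24.9% were called, 12.6% higher and 12.3% lower in PKI. Timp1 entered this test, too, through PKI BCC alone. The effect was higher in PKI for Mmp13 by 4.09 (SE 1.03, adjusted p = 0.0135), for Mmp9 by 3.13 (SE 1.02, adjusted p = 0.0424), for Mmp3 by 1.93 (SE 0.44, adjusted p = 0.00589) and for Timp1 by 4.77 (SE 1.18, adjusted p = 0.00932), all in log2 units. These 4 did not share one pattern: Mmp9, Mmp13 and Timp1 rose in PKI, whereas Mmp3 fell in SmoM2. In the joint fit the differences of Mmp3 (adjusted p = 0.133) and Mmp9 (0.0531) were not called. The Mmp9 difference was lost in 10 of the 14 fits that left out 1 library (adjusted p = 0.0512 to 0.117).

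The effect was lower in PKI for Timp3 by -1.35 log2 units (SE 0.17, adjusted p = 0.000133, edgeR) and for Mmp2 by -1.35 (SE 0.21, adjusted p = 0.000626). It was lower for Mmp14 by -0.78 (SE 0.10, adjusted p = 0.000148) and for Mmp11 by -1.54 (SE 0.40, adjusted p = 0.0123). These 4 genes rose in SmoM2 and were not called in PKI. The other two were Timp2, at -0.88 (SE 0.17, adjusted p = 0.00229), and Mmp15, at -0.56 (SE 0.15, adjusted p = 0.0131). The 6 lower differences were called in each of the 14 fits that left out 1 library, but in the joint fit those of Mmp2 (adjusted p = 0.0694) and Mmp15 (0.321) were not.

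Between Gnas-eKO and SmoM2 none of the 9 genes tested was called by edgeR, where 0.0758% of all 17151 genes were called higher and 0.0991% lower, 0.175% together. At an unadjusted p under 0.05 there were 2, as were 8.74% of all genes, and DESeq2 called 0 of the 9 and 1.24% of all genes. The estimate was 2.77 log2 units for Mmp9 (adjusted p = 0.427), 2.56 for Mmp13 (adjusted p = 0.420) and 1.71 for Mmp3 (adjusted p = 0.652). Between PKI and Gnas-eKO none of the 10 genes was called, where 4.49% of all 17254 genes were called higher and 4.57% lower, 9.06% together. At an unadjusted p under 0.05 there were 3, as were 25.3% of all genes, and DESeq2 called 1, Timp2, and 13.8% of all genes. Timp2 came nearest, at -0.98 (adjusted p = 0.0553), and was called at -1.11 (adjusted p = 0.0221) without Gnas-eKO BCC replicate 2. Mmp11 was likewise called without that library, at -1.66 (adjusted p = 0.0265, edgeR). Without Gnas-eKO BCC replicate 3, Timp3 was called at -1.23 (adjusted p = 0.0197), Mmp14 at -0.62 (adjusted p = 0.0414) and Timp2 at -1.09 (adjusted p = 0.0324). Timp2 was also called without Gnas-eKO BCC replicate 1, at -0.71 (adjusted p = 0.0385), and Mmp13 without PKI Con replicate 1, at 2.92 (adjusted p = 0.0423). A difference that misses the threshold does not show that the models act alike.

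**Figure D4:**
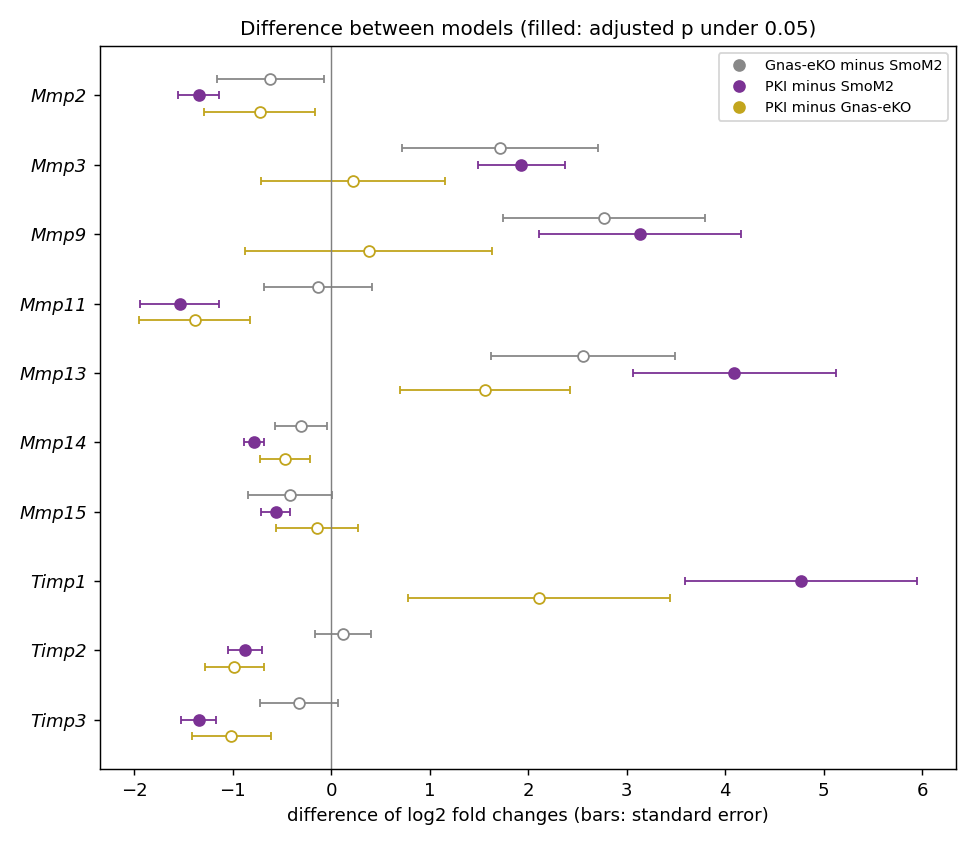
Difference of the BCC effect between models for each gene, in log2 units with bars of 1 standard error and filled points where the adjusted p was under 0.05. All 10 PKI minus SmoM2 points are filled, from -1.54 for Mmp11 to 4.77 for Timp1, and none of the points involving Gnas-eKO is.

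Matrix metalloproteinases and TIMPs are also made by fibroblasts and by cells of the immune system, so the markers of those cells are given here. In bulk RNA, a change in the number of cells of a type and a change in RNA per cell cannot be told apart. The keratinocyte markers (7 of 7 in the table, among them Krt5 and Krt14) summed to 25917 to 69460 CPM over the 21 libraries, so the labelled cell type had its markers. Their sum was lower in BCC in SmoM2 (49507 to 66256 CPM in Con, 33671 to 48636 in BCC). The same held in Gnas-eKO (51192 to 62704 CPM in Con, 25917 to 44951 in BCC). In PKI the groups overlapped (46120 to 63379 CPM in Con, 41866 to 69460 in BCC). Of the 7 markers, 1 was called higher and 4 lower in SmoM2. Fibroblast markers (7 of 7 in the table) summed to 136 to 163 CPM in SmoM2 Con and 428 to 580 in SmoM2 BCC. In PKI the sum was 36.7 to 84.2 CPM in Con libraries and 132 to 177 CPM in BCC libraries. Thy1, which lymphocytes also carry, made up most of the SmoM2 Con sum, at 106 to 137 CPM. Dcn, the proteoglycan decorin, was at 12.2 to 27.7 CPM in SmoM2 Con and at 362 to 499.7 CPM in SmoM2 BCC. It rose in all 3 models, with a log2 fold change of 4.40 (SmoM2), 4.07 (Gnas-eKO) and 2.26 (PKI). Pdgfra, a receptor that defines fibroblasts, stayed at or below 1.2 CPM in every library. In SmoM2, 2 of the 7 rose (Col1a2 and Dcn) and 1 fell (Thy1, at -1.23). Of all genes tested in SmoM2, 16.2% were called higher and 13.5% lower, which stands beside both marker counts. The part of fibroblast RNA in the rise of Mmp2, Mmp11, Mmp14, Timp2 and Timp3 in SmoM2 was not tested.

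Within Gnas-eKO BCC the fibroblast sum was 222, 675, 124 and 320 CPM in replicates 1 to 4, beside 144 to 162 CPM in Con. Replicate 3 was lowest in this sum and also lowest of the 4 in Mmp2, Mmp14 and Timp3. Replicate 2, with the highest sum, was not the highest of the 4 in any of these 3 genes. It was also the library nearest to Con on the first principal component (-20.4), with the highest keratinocyte sum of the 4 (44951 CPM). Mmp9, Mmp11, Timp1 and Timp2 were lowest in replicate 2. Mmp3, Mmp13 and Mmp15 were highest in replicate 2 and lowest in replicate 3.

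The marker sums of most immune cell types, though not of mast cells, were higher in PKI BCC than in PKI Con. The macrophage and dendritic cell markers (6 of 6 in the table) had a sum of 16.5 to 20.6 CPM in PKI Con. Their sum in PKI BCC was 33.9 to 50.7 CPM, and Csf1r (2.04) and Cd68 (1.13 in log2 units) rose. Itgam (0.29, adjusted p = 0.249, edgeR) and Adgre1, which passed the filter only through BCC, were not called in PKI. The rise of Cd68 was not particular to PKI. In SmoM2 it was called higher too (1.32, adjusted p = 0.00703, edgeR), while Itgam was called lower (-1.56). In Gnas-eKO Cd68 was at 0.95 (not called). Mrc1 had 2 counts in PKI Con and 61 in PKI BCC and passed the filter only through BCC. Neutrophil markers (4 of 7 in the table) had a sum of 1.20 to 4.00 CPM in the PKI Con libraries and of 6.00 to 12.6 CPM in the PKI BCC libraries. Csf3r was at 0 in all PKI Con libraries, and Cxcr2, the only marker tested, rose by 1.91 log2 units. In the same libraries the T cell sum was 6.12 to 12.7 CPM without and 13.7 to 27.9 CPM with tumours, and the Langerhans cell sum was 104 to 197 CPM without and 329 to 601 CPM with them. The Langerhans cell sum was higher in BCC in the other models too. It was 159 to 197 CPM in SmoM2 Con and 226 to 287 CPM in SmoM2 BCC. Gnas-eKO had 169 to 218 CPM in Con and 231 to 566 CPM in BCC. Of these markers only Epcam (0.76) was called in SmoM2, and Cd207 was at -0.65 (not called). In SmoM2 the macrophage and dendritic cell sum was 18.6 to 25.5 CPM in Con and 13.2 to 19.0 in BCC, and the neutrophil sum was 1.88 to 5.62 and 2.30 to 3.10 CPM. For Gnas-eKO the macrophage and dendritic cell sum was 19.8 to 27.5 CPM in Con and 13.6 to 29.3 CPM in BCC. The neutrophil sum there was 3.06 to 5.14 CPM in Con and 1.59 to 4.71 CPM in BCC. The part of these cells in the rise of Mmp9, Mmp13 and Timp1 in PKI was not tested. The melanocyte sum was 153 to 201 CPM in PKI Con libraries and 72.2 to 117 CPM in PKI BCC libraries, endothelial markers summed to at most 5.03 CPM and skeletal muscle markers to at most 1.60 CPM in any library.

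**Figure D5:**
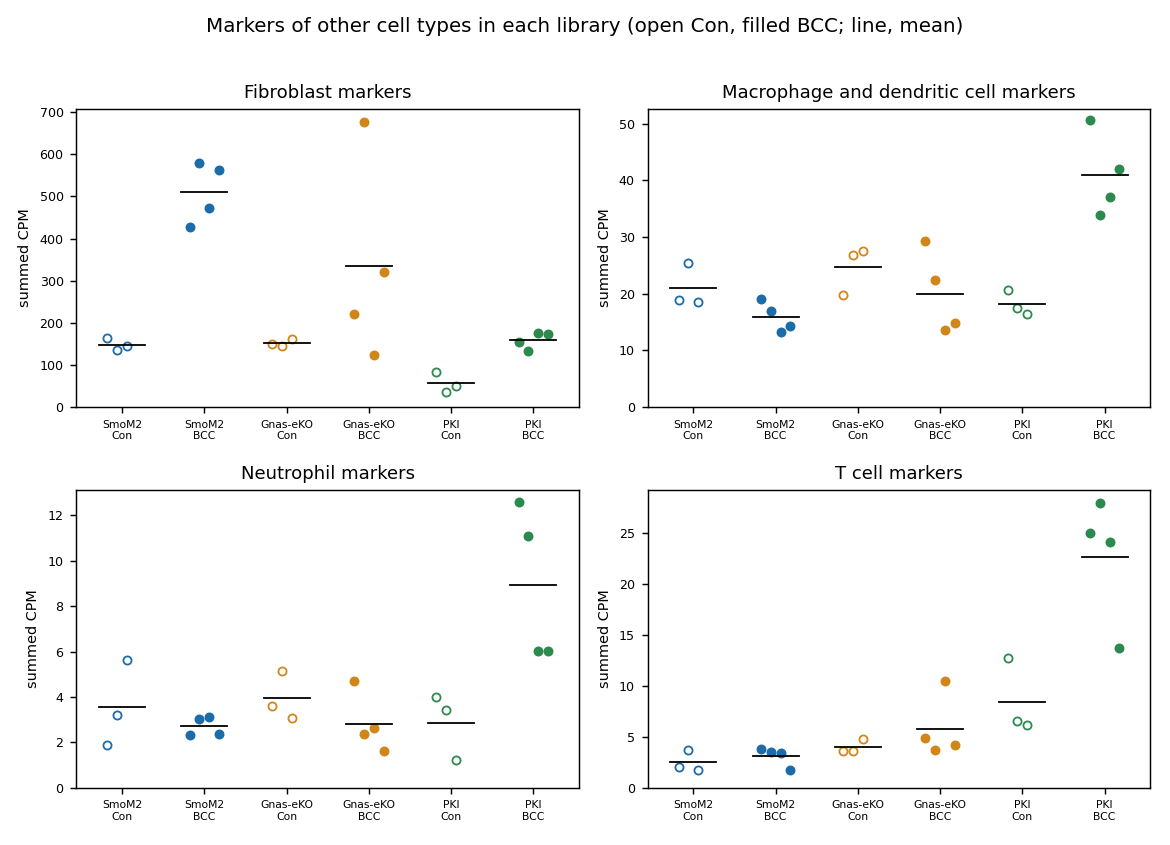
Summed CPM of marker genes of other cell types in each library, on a linear axis, by model and state. Fibroblast sums are higher in BCC than in Con in SmoM2 and PKI, and macrophage, neutrophil and T cell sums are higher in BCC than in Con in PKI.

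Beyond the 10 genes, 13 of 17 other metalloproteinase and TIMP genes on a list were in the table, most of them too low to test. In PKI 5 could be tested, and their median log2 fold change was 1.29 beside -0.00 over all genes. Of these 5, Mmp12, Mmp23 and Mmp25 passed the filter only through PKI BCC, so neither the median nor their calls support a direction. Mmp12, macrophage elastase, rose by 4.67 in PKI (adjusted p = 0.000946, edgeR), and its summed CPM ratio was 27.2 (exact 95% interval 12.3 to 74.9, 249 against 6 counts). Mmp25, a membrane-bound enzyme of leukocytes, rose by 2.16 (adjusted p = 0.00592), and Mmp28, epilysin of keratinocytes, fell by 0.69 on the log2 scale (adjusted p = 0.00531). In SmoM2 1 of the 3 tested was called, Mmp28, at -0.68 (adjusted p = 0.026), with a median of 0.34 over the 3. In Gnas-eKO none of 3 was called. Mmp12 could not be tested within SmoM2 and entered the test between PKI and SmoM2 through PKI BCC alone, where the difference was 4.06 log2 units (adjusted p = 0.00861).

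Genes that activate metalloproteinases or hold them in check at the cell surface were described from a list of 16, of which 13 were tested. In SmoM2 8 rose and 1 fell, with a median log2 fold change of 0.48. In PKI 6 rose and 1 fell, with a median of 0.44. In Gnas-eKO 2 rose, with a median of 0.67. The medians over all genes tested were 0.00, -0.00 and 0.02, and the shares of all genes called higher were 16.2% in SmoM2, 18.7% in PKI and 1.46% in Gnas-eKO, with 13.5%, 15.8% and 0.165% lower. Plat, tissue plasminogen activator, was called in all 3 models, at 1.15 in SmoM2 (adjusted p = 7.92e-06), 1.28 in Gnas-eKO (adjusted p = 0.0308) and 1.05 in PKI (adjusted p = 0.000899). Plaur, the urokinase receptor, rose in SmoM2 (4.14) and in PKI (2.45). Its SmoM2 ratio was 19.2 (exact 95% interval 7.28 to 71.6, 112 against 4 counts). In both models Plaur passed the filter on low counts only through the BCC libraries, as did Pcsk5 in SmoM2. Plaur and Pcsk5 passed only through BCC in Gnas-eKO too, so the medians of this list support no direction. Serpine2, a serine protease inhibitor, rose by 1.78 and Pcsk5, a proprotein convertase, by 2.34 in SmoM2, where Plau, urokinase itself, fell by 0.64 on the log2 scale. The smallest called rises in SmoM2 were those of St14 (0.27) and Cldn1 (0.47). In PKI Pcsk6, another proprotein convertase, fell by 0.85, and St14 (0.50) and Cldn1 (0.44) rose least. Reck, a membrane-anchored inhibitor of metalloproteinases, rose by 1.52 in Gnas-eKO (adjusted p = 0.0485) and by 1.61 in SmoM2 (adjusted p = 0.00176, edgeR).

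The related ADAM and ADAMTS proteases were all 17 in the table. Adamts1, Adamts9 and Adamts17 were called higher in all 3 models. The counts that follow stand beside the shares of all genes called, 16.2% higher and 13.5% lower in SmoM2, 18.7% higher and 15.8% lower in PKI, 1.46% higher and 0.165% lower in Gnas-eKO. In SmoM2 5 of 13 tested rose and 2 fell (median 0.09), led by Adamts17 (3.47), Adamts1 (3.20) and Adamts9 (2.15), with Adam15 (-0.67), Adam17 (-0.39) and Adam8 (1.18) lowest among the called. In Gnas-eKO 4 of 15 rose and none fell (median 0.63), namely Adamts9 (3.48), Adamts17 (3.33), Adamts1 (3.00) and Adamts10 (1.55). In PKI 6 of 14 rose and 4 fell (median 0.33), led by Adamts1 (3.03), Adam19 (2.89) and Adam8 (2.02), with Adamts15 (-1.55), Adam15 (-0.56) and Adam9 (-0.25) lowest. Adamts15 passed the filter in PKI only through Con. Adam12 passed only through BCC in PKI and Gnas-eKO, as did Adamts20 in Gnas-eKO, so the medians there support no direction. Adam17, a protease that Timp3 blocks, fell in SmoM2, where Timp3 rose, and fell in PKI by 0.24 on the log2 scale (adjusted p = 0.0191, edgeR), where Timp3 was not called.

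Proteins of the basement membrane, which these enzymes cut, were taken from a list of 16, of which 15 were tested. The type IV collagen genes Col4a1 and Col4a2 and the perlecan gene Hspg2 were called higher in all 3 models. In SmoM2 8 rose and 2 fell (median 0.54), with Col4a1 at 3.63, Col4a2 at 3.43 and Hspg2 at 3.26, and with Col4a6 (-0.46), Col17a1 (-0.46) and Lamb3 (0.53) lowest among the called. In Gnas-eKO 4 rose and none fell (median 0.42), Col4a1 at 4.03, Col4a2 at 3.46, Fn1 at 3.05 and Hspg2 at 2.84. In PKI 4 rose and 5 fell (median -0.01), with Col4a1 at 2.59, Col4a2 at 2.12 and Hspg2 at 1.33, and with Col4a6 (-1.49), Col4a5 (-1.20) and Col17a1 (-1.13) lowest. The shares of all genes called in each model, given above for the proteases, hold here too. The effect was lower in PKI than in SmoM2 for 7 of the 15 genes and higher for none, beside 12.3% lower and 12.6% higher over all genes.

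For each gene, the most alike patterns were found by the root mean square distance over the 12 BCC libraries of log2 CPM, each library taken minus the Con mean of its model, among 14636 candidate genes. A small distance is a description over libraries that share model and batch. Nearest to Timp3 were Spats2l (0.174) and Cep170 (0.214), against a root mean square change of Timp3 itself of 0.964. Genes with larger changes of their own had larger distances. Nearest to Mmp11 were Pdgfa (0.223), the platelet-derived growth factor A chain, and Fstl1 (0.232), beside a change of 1.47 for Mmp11. Mmp14 had Gpd1l (0.141) and Lfng (0.154), Mmp15 had Nfia (0.192) and Rab27a (0.200), and Timp2 had Abtb2 (0.188) and Efnb2 (0.191). Mmp2 had Cand2 (0.266) and Kif13a (0.308). Mmp9 had Hsd11b2 (0.802) and Rap1gap2 (0.912), Mmp13 had Cybrd1 (0.891) and Sema7a (0.932), Mmp3 had P2ry2 (0.55) and Sema3f (0.693), and Timp1 had Skint2 (0.598) and Alox5ap (0.758). Their own root mean square changes were 2.98 for Mmp9, 2.46 for Mmp13, 1.89 for Mmp3 and 2.00 for Timp1, and those of Mmp14, Mmp15, Timp2 and Mmp2 were 0.634, 0.627, 0.507 and 0.799.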

How the data were processed

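The count table the authors deposited holds estimated counts per gene without normalization, of which 33.1% are not whole, and no gene has fewer than 10 counts over the 21 libraries. The second table the authors deposited holds their normalized signal per gene, each count times a factor per library plus 0.001, and it was used for an alternative only. Per the submitters' processing notes, bcl2fastq 2.20, cutadapt 1.18, STAR 2.7.0f and Partek were used with mm10. The counting step, its use of strand and the annotation release are not given in the sources used here, although per the labels' protocols the library preparation was stranded.

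Counts were rounded and tested in R 4.3.3 with edgeR 4.0.16 (filterByExpr, TMM, robust glmQLFit and glmQLFTest), on 7 libraries within a model and on 14 for a difference between models, with Benjamini-Hochberg adjustment over all genes tested and a threshold of 0.05. Each standard error was derived as |log2 fold change| over the root of the F statistic. CPM used TMM-scaled library sizes over all libraries, and log2 CPM a prior count of 2. Exon lengths and positions are from GENCODE M21 (GRCm38), in which 23048 of the genes were found by name. The script was tested on simulated data. Alternatives used DESeq2 1.42.0, limma 3.58.1 on log2 of the deposited signal plus 0.5, other scaling, no filter, a joint fit, a replicate block and each library left out.

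The genes and lists were chosen with earlier results of these data known. The 10 genes are named throughout. From each of the 4 further lists, the 3 called genes with the highest and the 3 with the lowest fold change per model are named, plus any called in all 3 models, and the 2 nearest genes per member. The values of 1 gene that this rule names are not reported here. Same-numbered Con and BCC libraries did not deviate together in every pair (correlations from -0.11 to 0.24), so the numbers were not taken as pairs. No library was a copy of another: the smallest chi-square between libraries of a group, per degree of freedom, was 12.5. Protein sequences were not used here.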

Additional observations from a re-analysis of the deposited data

Results flagged for a closer look

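The BCC effect differed between PKI and SmoM2 for all 10 genes by the interaction test of edgeR at an adjusted p under 0.05, a comparison in which 24.9% of all genes were called. Timp1 entered that test through PKI BCC alone. In the joint fit of all 21 libraries the differences of Mmp2, Mmp3, Mmp9 and Mmp15 were not called, and that of Mmp9 was lost in 10 of the 14 fits with 1 library left out. On the log2 scale the effect in PKI minus that in SmoM2 was -1.35 for Mmp2, 1.93 for Mmp3, 3.13 for Mmp9, -1.54 for Mmp11, 4.09 for Mmp13, -0.78 for Mmp14, -0.56 for Mmp15, 4.77 for Timp1, -0.88 for Timp2 and -1.35 for Timp3. Timp2 is the gene whose 2 effects were called in opposite directions. Model, batch and day after induction cannot be told apart in this difference. Each of the 30 groups of 4 BCC libraries (10 genes in 3 models) was examined by Dixon's criterion, which chance meets in about 1 of 20 groups. On the CPM scale no library stood apart. On the log2 CPM scale Mmp2 in Gnas-eKO BCC replicate 3 did, at 4.93, with a gap to the nearest library of 0.847 of the group's range.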

How the results depend on the processing

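Each comparison was recomputed under 6 alternatives with all libraries and with each library left out. The number of genes called moved most in Gnas-eKO, from 267 to 1535 with DESeq2, 2644 when all 21 libraries were fitted jointly and 135 under the replicate block. The replicate block gave 3428 calls in SmoM2 (4860 without it) and 5988 in PKI (5653). Differences moved from 30 calls to 212 with DESeq2 and 66 in the joint fit for Gnas-eKO against SmoM2, and from 1564 to 2389 with DESeq2 and 925 with the block for PKI against Gnas-eKO. The block gave 21 and 3958 calls in the other two differences. Among the 10 genes the block changed 1 call: Mmp2 was called lower in PKI (-0.60, adjusted p = 0.0097, edgeR); limma on the authors' signal also called it (-0.48, adjusted p = 0.0483).

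The joint fit left 3 of the 10 genes called higher in SmoM2 (Mmp2 at adjusted p = 0.0825 and Timp2 at 0.154 were lost), 4 higher in Gnas-eKO (Mmp9, Mmp11, Mmp14, Timp3), 0 lower in PKI (Mmp15 at 0.099, Timp2 at 0.0536), and 2 higher in PKI against SmoM2 (Mmp3 at 0.133 and Mmp9 at 0.0531 were lost, as were Mmp2 at 0.0694 and Mmp15 at 0.321 among the lower). Over all genes the joint fit called 4018 in SmoM2 (4860 in the main fit), 2644 in Gnas-eKO (267) and 5188 in PKI (5653). For the differences it called 2993 in PKI against SmoM2 (4300) and 2316 in PKI against Gnas-eKO (1564). DESeq2 called 3 higher in Gnas-eKO, and 1535 of all genes there. DESeq2 and the joint fit each called 1 lower in PKI against Gnas-eKO, Timp2 (adjusted p = 0.0193 and 0.018). Without the filter on low counts the Mmp9 difference between PKI and SmoM2 had an adjusted p of 0.0709 (edgeR).

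With 1 library left out, calls over all genes ranged from 3613 to 4627 in SmoM2, 0 to 1910 in Gnas-eKO, 4057 to 5466 in PKI, 14 to 79, 3401 to 4429 and 673 to 2512 in the differences Gnas-eKO to SmoM2, PKI to SmoM2 and PKI to Gnas-eKO. In Gnas-eKO the 1910 came without BCC replicate 2, and 0 came without Con replicate 1 or Con replicate 2. Of the 10 genes, always 5 were called higher and 1 lower in SmoM2, 0 to 2 and 0 to 1 in Gnas-eKO, 2 to 3 and 1 to 3 in PKI, 2 to 4 and always 6 in PKI against SmoM2, 0 to 1 and 0 to 3 in PKI against Gnas-eKO and 0 either way in Gnas-eKO against SmoM2. In PKI the lower number called higher came where Timp1 failed the filter.

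Direction changed only in estimates that were not called, in log2 units. Over the fits with 1 library left out, Mmp15 in SmoM2 ranged from -0.0807 to 0.0903, Timp3 in PKI from -0.16 to 0.0585, Mmp11 in Gnas-eKO against SmoM2 from -0.42 to 0.12 and Timp2 there from -0.17 to 0.23. In PKI against Gnas-eKO, Mmp3 ranged from -0.14 to 1.53, Mmp9 from -0.0708 to 1.96 and Mmp15 from -0.38 to 0.27. Mmp15 in SmoM2 was also 0.0021 with the replicate block, and Mmp15 in PKI against Gnas-eKO was 0.0132 with limma on the authors' signal. The cause was not tested. Depth limits Timp1 most, which had at most 9 counts in any Con library.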
